A study of Mus musculus with 6 samples.

Results

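CD4 T cells that carried RNA of Eomes or Gzmk were described in single cells of 6 mice with KPCA tumors. Eomes encodes eomesodermin, a T-box transcription factor of cytotoxic and memory lymphocytes, and Gzmk encodes granzyme K, a serine protease stored in their granules. Cells were selected on measured values, namely their UMI counts (a UMI, or unique molecular identifier, stands for 1 RNA molecule caught in a droplet). A cell was kept with at least 250 detected genes and at most 5% of UMIs from mitochondrial genes. It counted as a CD4 T cell with at least 3 UMIs summed over Cd3d, Cd3e, Cd3g, Trac, Trbc1 and Trbc2, at least 1 of Cd4, none of Cd8a, Cd8b1, Foxp3 or Cd79a, and at most 5 over Lyz2, C1qa, C1qb and C1qc. The cells described here, called Eomes/Gzmk CD4 T cells, also had at least 1 UMI of Eomes or Gzmk. They numbered 773 of 51633 kept cells (57078 barcodes were in the files), and 15177 kept cells met the T cell rule. They were compared with the 1692 CD4 T cells that had neither UMI, with 849 Foxp3 T cells that met the same rule but had a Foxp3 UMI, and with 4344 CD8 T cells that had Eomes or Gzmk.

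Each library came from 1 mouse. KPCA cells are a mouse ovarian cancer line with intact homologous recombination, built with a missense mutant of Trp53 and overexpression of Ccne1 and Akt2, and were injected into 1 ovarian bursa of female C57BL/6 mice aged 6 to 8 weeks. The control mouse received solvent and rat IgG. The sugar analog 2DG (2-deoxy-D-glucose) was injected at 500 mg/kg every 2 days from day 9. The fucosylation inhibitor 2FF (2F-peracetyl-fucose) was given by gavage every 2 days to mice whose tumor cells had been held in 300 µM 2FF for 3 days. The blocking antibody anti-PD-L1, whose target is the ligand of PD-1, was given at 5 mg/kg by injection 2 times a week for 3 weeks after day 9, alone, with 2DG or with 2FF. All mice were sacrificed on day 30, and the control and anti-PD-L1 libraries served the comparisons of both drugs. The paper places the cells in orthotopic tumors, the labels name lymph node, and the series text speaks of young and aged mice. The labels name 2FF as given above, and the paper calls it 2-fluoro-L-fucose. The libraries were mapped by the treatments in the labels. With 1 mouse per treatment, values of treatments are given side by side without a test, and tests were made between cell populations inside the 6 libraries.

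Most CD4 T cells act as helpers: they recognise peptide on class II molecules and steer other cells through cytokines and through surface ligands such as CD40L. A minority take on a program otherwise typical of CD8 T cells, with T-box factors, granzymes, perforin and chemokines. CD4 cells with Eomes have been described both as cytotoxic cells and, with IL-10 and LAG-3, as type 1 regulatory cells, which lack Foxp3. Tox, a nuclear factor, is known for sustained expression in T cells under chronic antigen stimulation.

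The genes behind the selection lie on 2 chromosomes. On GRCm38 with the GENCODE M21 annotation, Eomes spans chr9:118478212-118486132 on the plus strand and Gzmk chr13:113171608-113225908 on the minus strand. That annotated span of Gzmk contains Esm1 (chr13:113209659-113218098, plus strand), the gene of the proteoglycan endocan, which lies upstream of Gzmk by the latter's RefSeq start. Eomes and its relative T-bet bind T-box elements whose core is often written GGTGTGA. These letters were searched on both strands in the 250 bases before each gene's start (RefSeq, GRCm38.p6). They stood 75 bases before the start of Gzmk and 13 before that of Nkg7, which encodes a granule membrane protein, by RefSeq's starts, whereas the GENCODE span of Nkg7 (chr7:43437073-43438249) begins earlier and holds its window. Both windows are shown because these genes are in the cytotoxic program described below. Capitals mark the match, and each run is written 5′ to 3′ on the gene's strand.
Gzmk, chr13:113181005-113181064, minus strand: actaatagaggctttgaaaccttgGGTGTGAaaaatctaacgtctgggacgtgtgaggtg
Nkg7, chr7:43437101-43437137, plus strand: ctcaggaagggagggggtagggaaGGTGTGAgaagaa
The letters occurred in 3.84% of all 27025 promoters and in 3.27% of those of 7154 matched genes tested against CD4 T cells without both. They occurred in 5.73% of 279 matched genes that were higher and in 4.08% of 515 that were lower. A match of letters is not a bound site, and Eomes binding was not measured in these files.

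The values that chose the cells are given as a description. Levels are UMIs summed over a library's cells, scaled to 1000000 UMIs of those cells (CPM). Where 6 values are listed, they are the control first, then the single agents 2DG, 2FF and anti-PD-L1, and last the antibody combined with 2DG and with 2FF. Eomes in Eomes/Gzmk CD4 T cells stood at 276, 255, 122, 222, 237 and 138 CPM. Gzmk stood at 208, 227, 243, 227, 251 and 198 CPM. Gzmk was thus more even over the libraries than Eomes, which was lowest in the libraries that received 2FF. CD8 T cells with Eomes or Gzmk had 152 to 233 CPM of Eomes and 111 to 182 of Gzmk. In every library the Gzmk level of the CD4 cells was above that of the CD8 cells. Cd4 was read at 379 to 527 CPM. Tox, which the rule did not use but which was named as a marker of these cells, had a UMI in 93.8% to 99.1% of them, and its level was 4097, 3265, 2403, 4145, 3372 and 3232 CPM against 1806 to 2676 CPM in CD4 T cells without both. Tox was therefore present in nearly all of these cells, and it was not particular to them: CD8 T cells with Eomes or Gzmk had 1346 to 1672 CPM and Foxp3 T cells 1583 to 2499 CPM.

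Detection of both genes in the same cell was common. Of the 773 cells, 340 had UMIs of both genes, 236 of Gzmk alone and 197 of Eomes alone. The share with both was 62.0%, 51.3%, 27.6%, 39.6%, 33.3% and 33.8%, highest in the control and 2DG libraries. With each cell thinned to 2000 UMIs, a Gzmk UMI was found in 27.0% to 33.3% of CD4 T cells that had an Eomes UMI and in 3.79% to 10.8% of those that had none. The selection threshold was 1 UMI, and 231 cells stood just inside it with 1 UMI of either gene (median 5823 UMIs per cell), 131 had 2 (6054) and 411 had 3 or more (7442), while the 1692 cells outside it had a median of 5499.5. A rule of this kind takes deeper cells more readily. Median depth was 8330, 7156, 5472.5, 6283, 5722 and 7342 UMIs in Eomes/Gzmk CD4 T cells against 5906, 5422, 5199, 5311, 5259 and 6782.5 in the others, and was higher in every library. RNA free in the droplets can also give single UMIs: in B and myeloid cells, which should lack both genes, 0.175% to 0.458% of cells had a Gzmk UMI and 0.324% to 0.954% an Eomes UMI at 7178 to 11472 median UMIs. CD4 T cells had them far more often, with Gzmk in 12.7% to 40.2% and Eomes in 9.64% to 43.0% of cells.

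Other lymphocytes that carry Eomes or Gzmk could enter such a gate, so their markers were summed. The 10 NK and NKT markers together had 176 to 475 CPM in Eomes/Gzmk CD4 T cells, led by Fcer1g at 85.9 CPM on average, against 161 to 336 CPM in CD4 T cells without both and 2673 to 3850 CPM in cells that were not T cells. The 6 gamma-delta T cell markers summed to 106, 46.2, 17.2, 10.2, 7.84 and 24.0 CPM, led by Tcrg-C2, with Sox13 at 0. In CD4 T cells without both they summed to 8.20, 25, 9.20, 15.7, 16.0 and 8.76 CPM, so that the excess in Eomes/Gzmk CD4 T cells was largest in the control library. The 6 B cell markers summed to 78.1 to 846 CPM (Cd74 most), the 8 myeloid markers to 134 to 602 (Cst3 most) and the 6 tumor epithelial markers to at most 23.0, with Wfdc2 at 0. In CD4 T cells without both, the B cell markers summed to 350 to 1009 CPM and the myeloid markers to 342 to 2726, both highest in control, where Eomes/Gzmk CD4 T cells had 78.1 and 602. Of the type 17 markers, Il17a, Il17f and Il22 were at 0. A UMI of Ncr1, Klrb1c, Trdc or Zbtb16 was present in 1.41% to 6.17% of the cells, and 2.09% to 10.2% were marked by a doublet score. Without the cells that had those 4 markers, 379 genes were higher and 619 lower than in CD4 T cells without both, and without the scored doublets 431 and 681, against 364 and 676 with all cells. Between 16 and 34 barcodes were shared by any pair of libraries, at most 0.345% of cells, and none of the 773 cells had a shared barcode.

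Eomes/Gzmk CD4 T cells were a larger fraction of CD4 T cells in the control and 2DG libraries than in the other 4. They numbered 71, 335, 98, 111, 81 and 77 cells. Of the Foxp3-negative CD4 T cells they were 50% (95% Clopper-Pearson interval 41.5% to 58.5%) in control, 53.4% (49.4% to 57.4%) with 2DG, 20.5% (17% to 24.5%) with 2FF, 25.7% (21.6% to 30.1%) with anti-PD-L1, 18.3% (14.8% to 22.3%) with 2DG plus anti-PD-L1 and 22.3% (18.0% to 27.1%) with 2FF plus anti-PD-L1. The first 2 intervals overlapped each other and lay above the other 4. These intervals cover counting error only, and a difference between mice cannot be told apart from a treatment. The same 2 libraries were highest with cells thinned to 2000 UMIs, where the shares were 31.7%, 33.1%, 11.4%, 15.7%, 10.7% and 11.2%. Among CD8 T cells the share with Eomes or Gzmk was 58.7%, 61.6%, 52.1%, 51.5%, 50.3% and 60.2%, without such a gap. The control library held few T cells altogether, 495 of 9075 kept cells, so that the cells were 14.3% of its T cells and 0.782% of all its cells, while in the 2DG library they were 11.1% of T cells and 4.35% of all cells.

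**Figure D1:**
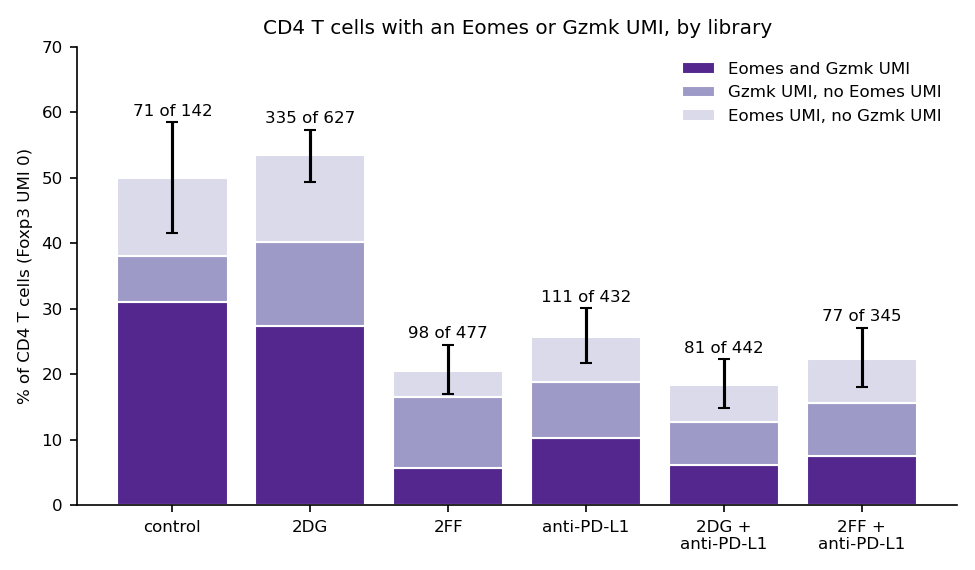
Percent of Foxp3-negative CD4 T cells with an Eomes or Gzmk UMI in each library, stacked by which of the 2 genes was found, with the 95% Clopper-Pearson interval of the whole bar and its cell counts above. The bar stands at 50% and 53.4% in the control and 2DG libraries and at 18.3% to 25.7% in the other 4.

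Compared with CD4 T cells without both, these cells had more RNA of chemokines, perforin and several inhibitory receptors, and less of the IL-2 and IL-7 receptors, Il13 and the ligands Cd40lg and Tnfsf8. Counts were summed per library and population and fitted with edgeR's quasi-likelihood test with the library as a block (6 libraries, Benjamini-Hochberg adjustment over 8997 genes). At an adjusted p under 0.05, 364 genes were higher (4.05% of those tested) and 676 lower (7.51%). DESeq2 called 214 higher, 1 edgeR fit over 4 populations called 711 higher, and without the library block 429 were lower. The gene sets below are set against these shares and against the median log2 fold change of all tested genes, 0.01. Without the 2DG library, which held more of the cells than any other, 173 genes were higher and 348 lower, and without the anti-PD-L1 library 222 were higher. With every cell thinned to 2000 UMIs before Eomes and Gzmk were read, so that depth and membership both changed (195 and 429 cells in the 2DG library in place of 335 and 292), 143 were higher and 227 lower, of which 105 and 209 were among the genes called at full depth. Fitted values below are log2 fold changes with edgeR adjusted p. The ± value beside them is an approximate standard error, the absolute log2 fold change divided by the square root of the test's F statistic.

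Effector genes came first. Ccl5 encodes the chemokine RANTES. Its level was 5334, 7219, 5792, 7479, 7337 and 3659 CPM, against 312 to 1492 CPM in CD4 T cells without both. The populations did not overlap for Ccl5, and the difference was 2.49 ± 0.23 (adjusted p = 7.83e-05). Prf1, the pore-forming protein perforin, stood at 188, 216, 182, 291, 361 and 147 CPM against 39.6 to 119, again without overlap (1.49 ± 0.17, adjusted p = 0.000215). Ifng, the type 1 cytokine interferon gamma, had 213, 439, 1064, 466, 557 and 731 CPM against 125, 230, 472, 394, 443 and 466. Ifng was higher in each library although the ranges overlapped (0.67 ± 0.11, adjusted p = 0.00237), and it was no longer called without the library block or when the cells were taken by Gzmk alone. Of the 20 cytotoxic and type 1 effector genes tested, 7 were higher, namely these 3, Ccl3 (1.28), Ccl4 (1.24), Nkg7 (1.0) and the transcription factor gene Runx3 (0.77). A smaller group was lower: Il12rb2 (-1.36), Il18r1 (-1.94) and Il18rap (-1.88), which encode receptor chains for the cytokines IL-12 and IL-18, and Hopx (-0.89), which was not called without the 2DG or the anti-PD-L1 library. The list's median was 0.37. The T-bet gene Tbx21 was not among those that passed, at 86.5 to 239 CPM against 135 to 257.

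In the list of inhibitory receptors and exhaustion genes, more genes were higher than lower. Lag3, whose product binds class II molecules, had 283, 338, 296, 582, 553 and 261 CPM against 82.0, 109, 239, 227, 253 and 200. It was higher within each library (1.05 ± 0.17, adjusted p = 0.00188). Of 12 genes in the list 7 were higher. Besides Lag3 these were the receptor genes Tigit (0.64), Havcr2 (0.60) and Cd244a (0.86), the transcription factor genes Tox2 (0.61) and Nr4a2 (0.75), and Entpd1 (0.73), whose product is an ectoenzyme that degrades ATP. Btla (-1.02) and Cd200 (-0.73) were lower, and the median was 0.63. Havcr2, Cd244a, Tox2, Btla and Cd200 each lost their call without the 2DG library and in other alternatives, whereas the calls of Lag3, Tigit, Nr4a2 and Entpd1 held in those run. Pdcd1, the PD-1 gene and the receptor for the ligand that the antibody blocks, did not pass. It read 326, 299, 205, 352, 278 and 281 CPM against 230, 207, 285, 305, 367 and 309, higher in 3 libraries and lower in 3. Of the 13 genes of PD-1 signalling, 1 was higher (Lat, 0.39) and 4 lower, among them the ligand genes Cd274 (-0.81, not called in thinned cells) and Pdcd1lg2 (-1.43). Both were also called without the control library, in which CD4 T cells without both had the most myeloid and B cell marker RNA, and the part of that RNA in these differences was not tested.

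Of the 10 genes of type 1 regulatory cells, 5 were higher and 1 lower (median 0.38). Il10, the gene of the suppressive cytokine, was scarce: 11.6, 23.7, 11.5, 59.9, 66.6 and 46.6 CPM against 24.6, 13.0, 14.0, 16.2, 26.3 and 12.2. Il10 was thus lower in the control and 2FF libraries and higher in the other 4, and its fitted difference was 1.04 ± 0.31 (adjusted p = 0.047), a call lost by DESeq2, without the library block and with any library but the control or the 2FF library left out. Maf, a transcription factor of IL-10 producing and follicular T cells, read 379 to 590 CPM against 304 to 380, a small difference of 0.37 ± 0.08 (adjusted p = 0.0116) that was not called without the library block or when cells were taken by Eomes alone. Lag3, Havcr2 and the IL-10 receptor gene Il10ra (0.75) were the others. Cd226, an activating receptor of this list, was lower (-1.35), and Itga2, Prdm1, Ahr and Ctla4 did not pass.

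Of 10 costimulatory genes, 6 were lower and 1 higher (Cd27, 1.18), with a median of -0.65. Cd40lg, which licenses antigen-presenting cells, stood at 6.65, 12.9, 23.0, 30.6, 27.4 and 21.0 CPM against 42.8 to 88.1, without overlap (-1.69 ± 0.17, adjusted p = 0.000152). Tnfsf8, the gene of CD30 ligand, stood at 6.65, 59.5, 54.6, 102, 127 and 119 CPM against 399.96 to 734 (-3.03 ± 0.24, adjusted p = 4.3e-05). The control library was the lowest in both. Tnfrsf4, Tnfrsf9 and Tnfrsf18, which encode OX40, 4-1BB and GITR, were lower by smaller amounts (-0.93, -0.58 and -0.72). Foxp3 T cells had more of these genes than either population, at 417 to 821, 728 to 1592 and 381 to 603 CPM. CD4 T cells without both were chosen by having no Foxp3 UMI, so cells with missed Foxp3 RNA may be among them. The part of such cells in these differences was not tested. Cd28 differed by -0.28 at full depth and by 0.0061 in thinned cells.

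Receptor genes for the cytokines IL-2 and IL-7 were lower as well. Il2ra, the high-affinity chain of the IL-2 receptor, read 4.99, 27.3, 90.5, 11.5, 39.2 and 87.1 CPM against 220 to 422 (-2.86 ± 0.33, adjusted p = 0.000215). Il7r read 28.3, 27.0, 63.2, 33.1, 133 and 73.6 CPM against 201 to 716 (-2.57 ± 0.28, adjusted p = 0.000186). Neither overlapped. Il7r belongs to the naive and memory list, in which 5 of 9 tested genes were lower and none higher (median -0.71): with it went the homing receptor genes Ccr7 (-2.16) and S1pr1 (-1.89) and the transcription factor genes Tcf7 (-1.48, not called by DESeq2 or without the 2DG or the anti-PD-L1 library) and Bach2 (-0.63). By edgeR, the 3 tested type 2 genes were lower, namely Gata3 (-1.16), Il13 (-2.83) and Il1rl1 (-4.48). Il13 read 1.66 to 19.5 CPM against 18.3 to 151. Il1rl1 and Gata3 were not particular to type 2 cells. Foxp3 T cells had 67.5 to 149 CPM of Il1rl1. Gata3 averaged 122 CPM in them and 131 in CD4 T cells without both. The part of cells with missed Foxp3 RNA in these 2 differences was not tested. Of 11 residency and egress genes 6 were lower and 1 higher (median -0.78), the lower ones including Itgae (-1.93, not called without the 2DG or the anti-PD-L1 library), Itga1 (-1.28) and Cd69 (-1.0). Foxp3 T cells had 195 to 262 CPM of Itgae.

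Follicular helper genes were split. Cxcr5 (1.59), the receptor for the follicle chemokine, Sh2d1a (1.43), an adaptor of SLAM receptors, and Tox2 were higher, and Bcl6 (-0.90), the transcription factor that defines this lineage, was lower, though not without the 2DG, the anti-PD-L1 or the 2DG plus anti-PD-L1 library. Cxcr5 read at most 36.0 CPM. The cell cycle list had 3 of 12 genes higher and none lower (Ccnb2, Mcm2 and Top2a, 0.72 to 1.03), with a median of 0.73. Top2a was not called in thinned cells, nor Mcm2 by DESeq2 or without the 2DG or the anti-PD-L1 library. Of the 8 regulatory T cell genes tested 4 were lower and none higher (median -0.54, the part of cells with missed Foxp3 RNA not tested). Of 12 interferon response genes 5 were lower (median -0.68, the part of myeloid and B cell RNA not tested). Of 14 dissociation and stress genes 5 were lower (median -0.35), led by Atf3 (-1.56). Of 11 lineage factor genes, 2 were higher (Runx3 and Ikzf3) and 5 lower, among them Zbtb7b (-0.72).

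The study concerned branched and fucosylated glycans, so 16 genes of their enzymes were listed, 13 of which were tested. Mgat5, which starts the beta-1,6 branch of N-glycans, read 150, 123, 106, 152, 141 and 128 CPM against 271, 247, 191, 281, 207 and 197. It was lower in each library without overlap (-0.82 ± 0.09, adjusted p = 0.000166). St3gal6, a sialyltransferase gene, was higher (0.72 ± 0.21, adjusted p = 0.0428) at 12 to 37.0 CPM, a call lost by DESeq2 and without each library but the 2FF plus anti-PD-L1 library. The core fucosyltransferase gene Fut8 read 144 to 222 CPM against 148 to 196 and did not pass, and the list's median was -0.08. The enzyme's product was not measured in these cells.

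Outside the lists, the genes with the largest differences and at least 50 CPM included several of less familiar function in T cells. Setbp1, the gene of SET-binding protein 1, was among the most abundant, with 1034, 1218, 665, 1212, 847 and 837 CPM against 30.8 to 303 (2.32 ± 0.27, adjusted p = 0.000205). Filip1 (2.47), Bend4 (2.22), Rasgef1b (1.80), Abcb9 (1.53), Adgrg1 (1.52), which encodes the adhesion receptor GPR56 of cytotoxic lymphocytes, and Chchd10 (1.36) were also higher in 6 of 6 libraries. Fam155a (3.07) came from 1 to 6 cells per library. Lower in 6 of 6 libraries were Frmd5 (-3.29), Lgals7 (-2.76), the gene of galectin-7, Plcb4 (-2.75), Gzmc (-2.74), the gene of granzyme C, and Hs6st3 (-2.71), a heparan sulfate sulfotransferase gene. Gzmc stood at 31.9 CPM on average in these cells and at 202 in the other CD4 T cells.

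**Figure D2:**
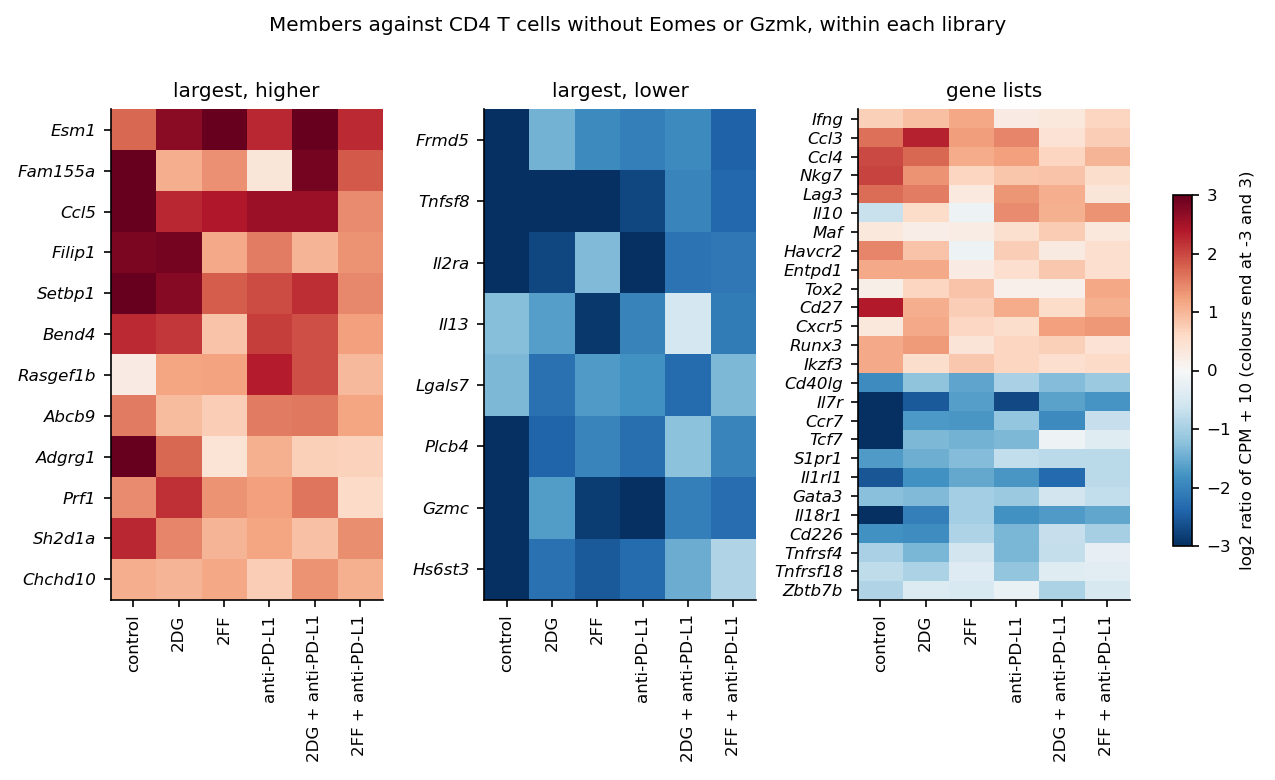
Log2 ratio of CPM + 10 between Eomes/Gzmk CD4 T cells (members) and CD4 T cells without both, for named genes (rows) in each of the 6 libraries (columns), red for higher and blue for lower, with colors ending at -3 and 3. Ccl5, Setbp1 and Prf1 are higher and Il2ra, Tnfsf8 and Plcb4 lower in all 6 libraries, while Il10 is lower in the control and 2FF libraries and higher in the other 4.

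Among the genes named against CD4 T cells without both, Esm1 had the largest fitted difference (4.61), but it lies inside the annotated span of Gzmk and its UMIs followed Gzmk. Esm1 had 103 CPM in cells with both selection genes, 101 in cells with Gzmk alone, 9.03 in cells with Eomes alone and 3.15 in CD4 T cells with neither. It had a UMI in 25.6%, 25%, 4.57% and 1.36% of these cells. Esm1 is for this reason given as a description beside the selection genes.

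The share of cells with a UMI was also compared for 9 genes, with every cell thinned to 2000 UMIs. An exact two-sided sign-flip permutation test over the 6 libraries was used, whose smallest possible p is 0.03125. Ifng was found in 46.6% of Eomes/Gzmk CD4 T cells and 29.4% of CD4 T cells without both, a difference of 17.3 ± 4.57 points (SD). Lag3 differed by 19.0 ± 8.92 points and the proliferation marker Mki67 by 4.05 ± 1.60, while Cd40lg differed by -7.39 ± 2.17 and Il2ra by -17.9 ± 5.82. Each of these 5 had its direction in 6 of 6 libraries and the smallest p (exact p = 0.03125, 0.0563 after adjustment over the 9 genes), so none passed 0.05 after adjustment at this depth. Tcf7 differed by -6.38 ± 4.33 points (exact permutation p = 0.0625, adjusted 0.0938), and Il10 (2.46 points, exact permutation p = 0.188), Il21 (-0.64, 0.531) and Pdcd1 (1.56, 0.688) did not separate the populations.

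CD8 T cells with Eomes or Gzmk had more RNA of Gzmb and Prf1 than these cells, with Ccl5, Nkg7 and Ifng levels in overlapping ranges. Of 9391 genes tested by edgeR, 464 were higher in the CD4 cells (4.94%) and 444 lower (4.73%). The edgeR fit over 4 populations called 715 higher. Without the 2FF plus anti-PD-L1 library 308 were higher and 289 lower, without the anti-PD-L1 library 257 were lower, and with both populations selected again after thinning (in the 2DG library 195 CD4 and 432 CD8 cells in place of 335 and 832) 212 and 171. Ccl5 and Nkg7 did not pass, with Nkg7 at 1538 to 2589 CPM in the CD4 and 1699 to 2660 CPM in the CD8 cells. Ifng was also close, at 213 to 1064 against 189 to 614 CPM. Setbp1 was not particular to the CD4 cells, at 665 to 1218 against 873 to 1440 CPM in the CD8 cells. Of the 20 cytotoxic and type 1 genes, 10 were lower in the CD4 cells and 1 higher (Ccl3, 0.83). Gzmb, the gene of granzyme B, had 23.3, 81.3, 271, 71.4, 143 and 122 CPM in the CD4 cells against 490 to 1016 (-2.71 ± 0.22, adjusted p = 1.22e-05). Perforin followed, with 388 to 741 CPM in the CD8 cells (-1.17 ± 0.15, adjusted p = 0.000461). Gzmb and Prf1 were thus lower in the CD4 cells without overlap. The receptor genes Klrk1 (-3.15), Klrc1 (-2.73) and Klrd1 (-1.32), the collagen-binding integrin gene Itga1 (-3.40) and Ly6c2 (-3.90) were lower too. The list of 10 NK and NKT markers was not lower as a whole. Of its 6 tested genes 1 was lower and 5 were not called, with a median of 0.27.

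Maf, Zbtb7b and Cd40lg were among the genes higher than in the CD8 cells. Maf had 21.6 to 39.6 CPM in the CD8 cells and 379 to 590 in the CD4 cells (4.05 ± 0.17, adjusted p = 6.07e-08). Zbtb7b, which encodes the CD4 lineage factor ThPOK, differed by 2.18, Cd40lg by 5.56 with 0 to 0.79 CPM in the CD8 cells, Il10 by 2.48 and Cxcr5 by 2.36. Of 10 costimulatory genes 6 were higher and 1 lower, and of 5 follicular helper genes 4 were higher and 1 lower (Bcl6, -0.63). Of 11 lineage factor genes 1 was higher and 2 lower (median -0.11). Tnfrsf4 (2.15), Izumo1r (2.83), which encodes folate receptor 4, Tshz2 (3.31), Tbc1d4 (2.61), Dlg2 (2.30) and Itgb8 (2.26), an integrin that activates latent TGF-beta, were higher in 6 of 6 libraries. Mgat5 was lower here as well, at 194 to 271 CPM in the CD8 cells (-0.86 ± 0.07, adjusted p = 1.81e-05). By edgeR, none of the 12 cell cycle genes passed.

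**Figure D3:**
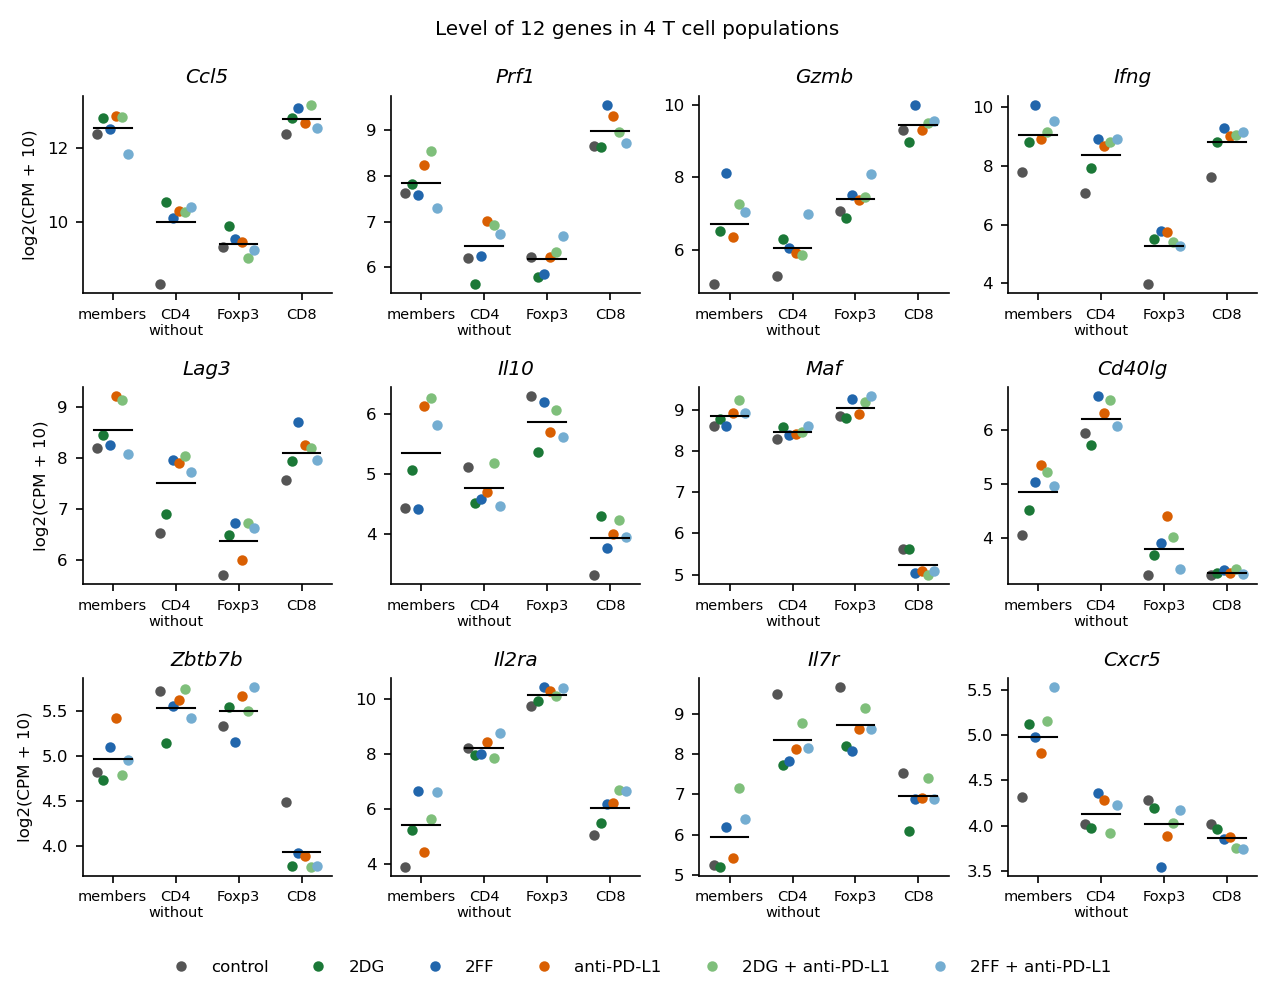
Log2 of CPM + 10 of 12 genes in Eomes/Gzmk CD4 T cells (members), CD4 T cells without both, Foxp3 T cells and CD8 T cells with Eomes or Gzmk, with 1 point per library and a bar at the mean. Ccl5 in Eomes/Gzmk CD4 T cells (3659 to 7479 CPM) lies above the other CD4 populations and in the range of the CD8 cells, Maf lies above the CD8 cells, and Il2ra lies below both other CD4 populations.

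Against Foxp3 T cells the share of called genes was the largest of the 3 comparisons with other populations. Of 7529 genes tested by edgeR, 906 were higher in Eomes/Gzmk CD4 T cells (12%) and 1103 lower (14.7%). DESeq2 called 534 higher, and 1 edgeR fit over 4 populations 1411. The 9 tested regulatory T cell genes, all of those in the list, were lower (median -2.02), among them Il2ra (-4.85), Ikzf2 (-2.72) and Ctla4 (-1.42). The rule separated these populations by Foxp3, which by itself favors this direction. Lrrc32 was at 0 in the Eomes/Gzmk cells. Ikzf2, the gene of Helios, was still read at 1501, 1014, 346, 902, 390 and 517 CPM in Eomes/Gzmk CD4 T cells, highest in control, against 4231 to 4899 CPM in Foxp3 T cells. Ifng was higher by 4.07 ± 0.17 (adjusted p = 2.28e-09), with at most 44.4 CPM in Foxp3 T cells. Of 19 cytotoxic genes 11 were higher and 3 lower, including Fasl (3.54), the gene of the death ligand, Klrd1 (3.73) and Prf1 (1.84). Pdcd1 was higher (1.54), at 58.1 to 149 CPM in Foxp3 T cells. Of the 10 type 1 regulatory genes 3 were higher and 1 lower (median -0.05). Maf read 379 to 590 CPM in Eomes/Gzmk CD4 T cells and 436 to 635 CPM in Foxp3 T cells. The receptor genes Tgfbr3 (4.42) and Adgrg1 (4.13), and Dlg2 (4.42), Bend4 (4.16) and Synpo2 (4.08), were higher in 6 of 6 libraries. Il1rl1 (-6.23), the IL-33 receptor gene, Areg (-4.86), the gene of the repair factor amphiregulin, and Itgae (-4.85) were lower in 6 of 6.

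Within the 773 cells, those with Gzmk alone and those with Eomes alone were not alike. Of 3796 genes tested by edgeR, 26 were higher with Gzmk alone (0.685%) and 18 lower (0.474%), and over all genes with at least 10 UMIs 94 and 68. These counts rest on few cells and moved with single libraries: without the 2DG library they were 15 and 8, without anti-PD-L1 4 and 5, without 2DG plus anti-PD-L1 2 and 5, and without 2FF plus anti-PD-L1 10 and 8. Prf1 was read at 114, 83.2, 39.7, 277, 86.0 and 76.1 CPM with Gzmk alone and at 143, 359, 581, 347, 595 and 248 with Eomes alone. Perforin was lower with Gzmk alone in 6 of 6 libraries (-1.87 ± 0.33, adjusted p = 0.0132), a call lost without the 2DG plus anti-PD-L1 library. Il7r was read at 88.7, 35.9, 90.7, 90.9, 238 and 182 CPM with Gzmk alone and at 0, 19.4, 22.4, 7.63, 47.6 and 31.7 with Eomes alone. It was higher with Gzmk alone (2.22 ± 0.34, adjusted p = 0.0119), though not by DESeq2. Besides perforin, Nkg7 (-0.62), Lag3 (-0.78), Tnfrsf9 (-1.17), Fasl (-0.94) and Nr4a2 (-0.72) were lower with Gzmk alone, and Furin (1.61), Pag1 (1.28), Emb (1.27), Rora (0.86), the gene of the nuclear receptor ROR-alpha, and Jak2 (0.65) were higher. Of these, Tnfrsf9 kept its call with each library left out. Nkg7 and Pag1 lost theirs without 2DG plus anti-PD-L1 and Furin without 2FF plus anti-PD-L1, while Lag3, Fasl, Nr4a2, Emb, Rora and Jak2 each lost theirs in at least 3 such fits, Fasl and Emb also by DESeq2. Golga4, which is counted among the lower genes (-1.03 ± 0.17), begins 20135 bases after Eomes on the same strand of chromosome 9. It read 146 to 292 CPM with Gzmk alone and 298 to 548 with Eomes alone. Because Eomes UMIs split these cells, Golga4 is given only as a description. Of the 18 cytotoxic genes tested, 3 were lower and none higher.

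**Figure D4:**
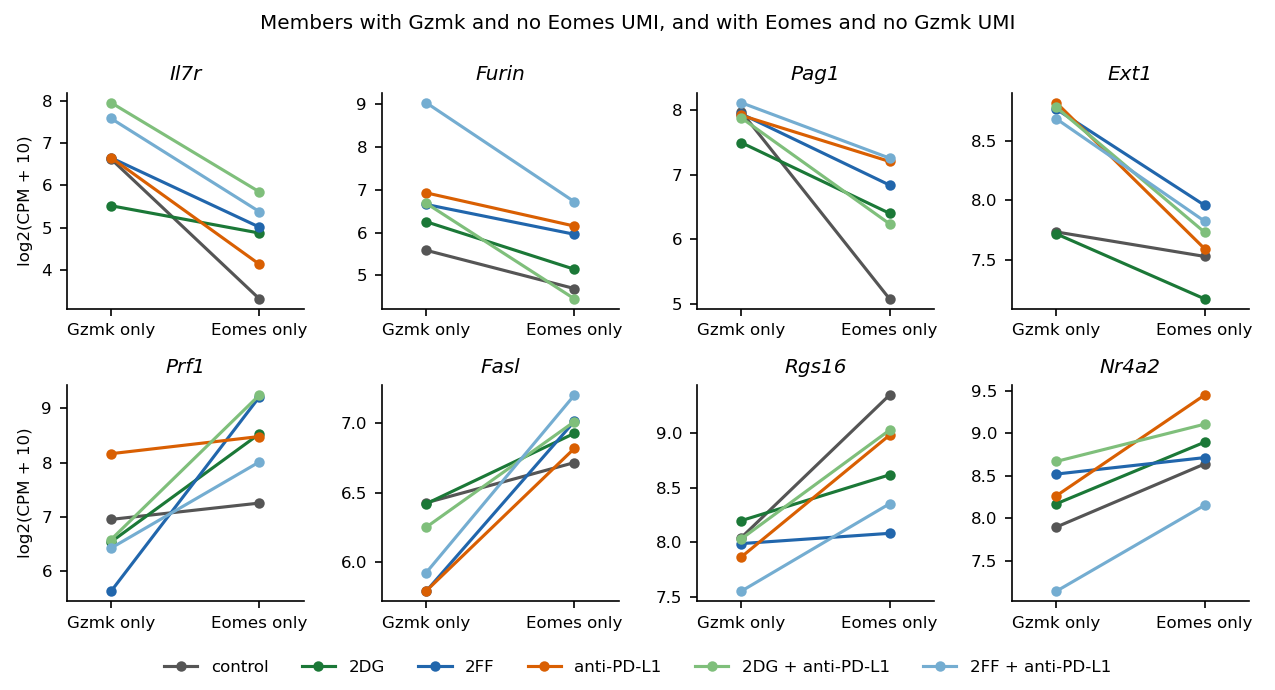
Log2 of CPM + 10 of 8 genes in Eomes/Gzmk CD4 T cells (members) with Gzmk and no Eomes UMI and in those with Eomes and no Gzmk UMI, with points joined within each of the 6 libraries. Il7r, Furin, Pag1 and Ext1 lie higher, and Prf1, Fasl, Rgs16 and Nr4a2 lower, with Gzmk alone in all 6.

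Between treatments, levels in these cells are those of 1 mouse each, and a ratio is past the fold where the log2 ratio of CPM + 10 is at least 1 in size. Against control, 3.19% of genes were past the fold with 2DG, 7.81% with 2FF, 4.57% with anti-PD-L1, 7.88% with 2DG plus anti-PD-L1 and 6.54% with 2FF plus anti-PD-L1. Against anti-PD-L1 alone they were 3.15% with added 2DG and 2.35% with added 2FF. The 5 comparisons with control share the same 71 control cells. Cytotoxic and type 1 genes had a median log2 ratio to control of 0.58 with 2DG, 1.42 with 2FF, 1.03 with anti-PD-L1, 1.36 with 2DG plus anti-PD-L1 and 1.15 with 2FF plus anti-PD-L1, while the median of all genes lay between -0.01 and 0.02. Past the fold upward were 5 of 20, 12 of 19, 9 of 18, 11 of 18 and 10 of 18 of them, and none downward. By this median the control cells were the lowest of the 6. Markers of myeloid cells moved the other way in the same ratios, with list medians of -2.04, -0.59, -1.53, -2.55 and -2.81 over the 4 to 6 genes measured, and summed to 602, 278, 467, 269, 351 and 134 CPM in Eomes/Gzmk CD4 T cells, highest in control. Their part in the result was not tested. Against anti-PD-L1 alone the median of the cytotoxic and type 1 list was 0.49 with added 2DG and 0.16 with added 2FF.

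Single genes of this and other lists varied in how far they did the same. Gzmb was 23.3 CPM in control and 71.4 to 271 in the others. Il12rb2 was 6.65 CPM from 2 cells in control and 153 from 32 cells with 2FF plus anti-PD-L1 (log2 ratio 3.29), and it was 49.2 to 157 CPM in the other 4. Icos, a costimulatory receptor gene, read 258, 327, 353, 494, 1157 and 581 CPM, highest with 2DG plus anti-PD-L1. Satb1, the gene of a chromatin organiser, was 24.9 CPM in 7 control cells and 299.9 in 40 cells with 2DG plus anti-PD-L1 (3.15). Il21, the follicular helper cytokine gene, was 0, 10.7, 83.3, 6.37, 13.7 and 87.1 CPM, highest in the libraries that received 2FF.

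Some genes were higher in the control cells. Hspa1a and Hspa1b, heat shock genes that also respond to tissue dissociation, had 449 and 657 CPM from 41 and 46 control cells. With 2DG plus anti-PD-L1 they had 5.88 and 13.7 CPM from 3 cells each (log2 ratios -4.85 and -4.81). The 14 dissociation and stress genes summed to 5319, 3011, 5123, 4000, 4565 and 4558 CPM in Eomes/Gzmk CD4 T cells and to 13079 CPM in the control library's cells that were not T cells, the most of the 6. Their part in the differences from control was not tested. Cacna1d, a calcium channel gene, read 153 CPM from 31 control cells and 8.62 from 4 cells with 2FF (-3.13). Myo10, a motor protein gene, went the other way, with 8.31 CPM from 2 control cells and 135 from 48 cells with 2DG (2.98).

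Several of the largest ratios came from few cells. Ccl1 (338 CPM with 2FF, 0 in control) had 65.1% of its UMIs in 1 cell, Xcl1 91.0% and Sox5 96.1%. With 2DG, Gzmc had 55.1% of its UMIs in 1 of 14 cells. Dthd1, 198 CPM with 2FF plus anti-PD-L1 and 2.55 with anti-PD-L1 alone (4.05), had 66.7% in 1 cell. Ralyl, higher in control than with 2DG, 2FF or anti-PD-L1 alone, came from 7 control cells. Such ratios describe single cells of a mouse.

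For the added drugs, 2DG plus anti-PD-L1 differed from anti-PD-L1 in cell cycle genes, with a median log2 ratio of -1.0 over 9 genes and 5 of them past the fold downward. The share of cells with an Mki67 UMI was 23.5% against 23.4%, and 9.54% against 12.6% with cells thinned to 2000 UMIs, with overlapping intervals. Stmn1, the gene of stathmin, read 35.3 CPM from 6 cells against 204 from 18 (-2.24). Klf2, a factor that supports egress from tissue, was 155 CPM from 26 cells against 30.6 from 10 (2.02), and the naive and memory list had a median of 1.16 over 6 genes. With 2FF added, cell cycle genes had a median of 0.32 and Pitpnm2 (-1.67) and Rasal2 (-2.26) were lower.

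T cell receptor beta variable (Trbv) segments are a feature that the selection did not use. Reads from the 3′ end of transcripts seldom reach them, and 11 to 70 Eomes/Gzmk CD4 T cells per library had 1 leading segment. In the control library Trbv20 led in 13 of 25 such cells (52.0%, Clopper-Pearson interval 31.3% to 72.2%), and with 2DG Trbv2 led in 37 of 70 (52.9%, 40.6% to 64.9%). The libraries with the largest shares of these cells each had 1 segment in over 50% of the assigned cells, and it was a different segment. In the others the leading segment had 5 of 24 cells with 2FF (Trbv19), 4 of 11 with anti-PD-L1 (Trbv31), 5 of 13 with 2DG plus anti-PD-L1 (Trbv13-1) and 5 of 18 with 2FF plus anti-PD-L1 (Trbv19). Seen from the segment, 13 of the 14 control CD4 T cells with Trbv20 had Eomes or Gzmk, against 12 of 25 with another segment. With 2DG it was 37 of 53 with Trbv2, against 33 of 74. The other libraries had the same direction. The counts were 5 of 5 against 19 of 82 with 2FF and 4 of 6 against 7 of 51 with anti-PD-L1. They were 5 of 16 against 8 of 60 with 2DG plus anti-PD-L1 and 5 of 7 against 13 of 70 with 2FF plus anti-PD-L1. Each segment was chosen because it led in Eomes/Gzmk CD4 T cells, which by itself favors this direction. Among CD4 T cells without both, the leader was Trbv26 in control (8 of 14) and Trbv2 with 2DG (16 of 57). CD8 T cells with Eomes or Gzmk were more even, with leaders at 13.1% to 20.8%. A shared segment is not a shared receptor, segments were picked after their counts were seen, and no test was made.

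**Figure D5:**
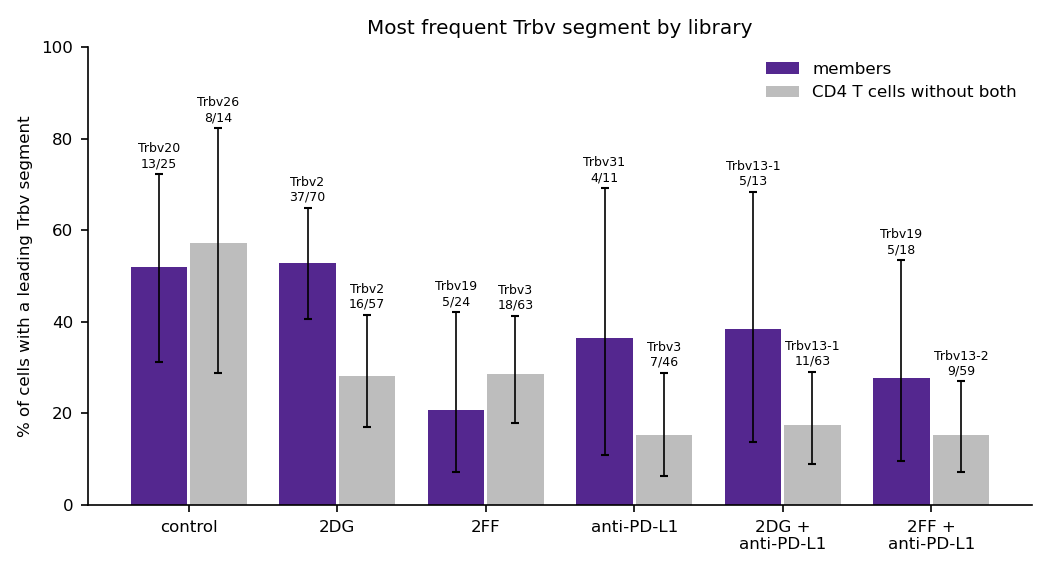
Percent of cells with an assigned Trbv segment that carried the leading segment in Eomes/Gzmk CD4 T cells (members) and in CD4 T cells without both, by library, with 95% Clopper-Pearson intervals and the segment and its cells above. In Eomes/Gzmk CD4 T cells it is 52.0% in control and 52.9% with 2DG and 20.8% to 38.5% in the other 4 libraries.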

How the data were processed

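Single cells were profiled with the 10x method, 1 library for each of 6 treatments. The deposited values are raw counts of UMIs for 32285 genes in each called cell, with no normalization by the authors. The file headers and the study's methods name Cell Ranger 7.0.0 on mm10, whereas the submitters' processing notes list Cell Ranger 3.1.0. The libraries held 61859753 to 73885214 UMIs. No columns of other samples were present.

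Cells were gated as described above, and the gate, gene lists and tests were chosen with earlier results of these data known. Depth sets the precision: 71 to 335 Eomes/Gzmk CD4 T cells per library stand behind each value. UMIs were summed per library and population. edgeR 4.0.16 (R 4.3.3; TMM, filterByExpr, glmQLFit and glmQLFTest) tested differences with the library as a block, since the populations compared came from the same mouse. Genes of the gate were not tested. DESeq2 1.42.0 was an alternative. The fits were tested on simulated data, and the outcome is not given or used here. Shares have Clopper-Pearson and CPM exact Poisson intervals at 95%, which cover counting error only. Ratios between libraries use CPM + 10 over genes with at least 30 UMIs, and thinning used the mean over all draws for shares and 1 seeded draw for fits. Whether barcodes are doublets was scored from simulated doublets among 30 neighbours (0.8% for each 1000 cells, 3573 cells marked). Marked cells were kept, and removed in an alternative.

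Named are the gate genes and Tox, the genes of 21 lists (222 genes), and per population comparison up to 12 genes with the highest and 8 with the lowest fold change among those called, moving the same way in each library and at 50 CPM or more. Per library comparison these are the 3 highest and 3 lowest ratios with UMIs from at least 5 cells. Gate, mitochondrial, ribosomal, immunoglobulin, receptor and haemoglobin genes, unnamed gene models and possible free RNA (under 20% of the level in all cells) were left out. Trbv segments, Golga4 and Esm1 beside Gzmk were singled out after their values were seen. Python 3.11.15, numpy 2.4.6, scipy 1.17.1, pandas 2.3.3, scikit-learn 1.9.0 and matplotlib 3.10.9 were used. Alternatives covered size factors, filters, pseudocounts, thinning, gates, doublets, the mitochondrial limit, the block and each library left out. A few items of the lists and of the line's genotype are not reported here.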

Additional observations from a re-analysis of the deposited data

Results flagged for a closer look

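Per-library values of the named genes were screened in 80 groups of 6 libraries for 1 value far from the rest, a rule that marks about 1 in 20 groups by chance, and 2 were marked. Frmd5, a FERM domain gene, had a log2 ratio of CPM + 10 between Eomes/Gzmk CD4 T cells and CD4 T cells without both of -4.73 in the control library, against -2.42 to -1.43 in the other 5. Xylt1, a xylosyltransferase gene, had a log2 ratio between cells with Gzmk alone and cells with Eomes alone of 2.43 in the 2DG plus anti-PD-L1 library, against 0.39 to 1.09 in the other 5.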

How the results depend on the processing

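Against CD4 T cells without both, 364 genes were higher and 676 lower. DESeq2 called 214 higher, cells selected again after thinning gave 143 higher and 227 lower, 1 fit over 4 populations gave 711 higher, and without the library block 429 were lower (245 higher). With 1 library left out in turn the counts were 173 to 380 higher and 348 to 753 lower, lowest without the 2DG library. Populations were paired within libraries by the block. Between treatments, no paired analysis was possible because each has 1 library. Against Foxp3 T cells (906 higher) DESeq2 called 534 and the 4-population fit 1411. Against CD8 T cells (464 higher, 444 lower) selection after thinning gave 212 and 171, the 4-population fit 715 higher, and leaving out 1 library 308 to 482 higher and 257 to 416 lower. Gzmk alone against Eomes alone (26 higher, 18 lower) gave 94 and 68 over all genes with at least 10 UMIs, and 2 to 31 and 5 to 26 with 1 library left out. Counted over genes and alternatives, calls of named genes were lost 143 times and held 1428 times against CD4 T cells without both, 40 and 969 against Foxp3 T cells, 66 and 800 against CD8 T cells, and 77 and 144 for Gzmk alone against Eomes alone. In 1 case the sign changed (Cd28 against CD4 T cells without both, 0.0061 in thinned cells and -0.28 otherwise). The cause of these shifts was not tested.

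In the order of the libraries, the share of Eomes/Gzmk cells was 31.7%, 33.1%, 11.4%, 15.7%, 10.7% and 11.2% in thinned cells, and 14.3%, 11.1%, 2.91%, 3.71%, 2.58% and 3.56% of all T cells. With at least 2 UMIs it was 41.5% in control, 42.7% with 2DG, 10.1% with 2FF, 17.6% with anti-PD-L1, 10.6% with 2DG plus anti-PD-L1 and 12.8% with 2FF plus anti-PD-L1. Genes past the fold against control numbered 273 with 2DG, 477 with 2FF, 285 with anti-PD-L1, 433 with 2DG plus anti-PD-L1 and 385 with 2FF plus anti-PD-L1, and against anti-PD-L1 186 with added 2DG and 146 with added 2FF. In this order a pseudocount of 50 CPM gave 64, 161, 73, 166, 136, 32 and 25, and a minimum of 100 UMIs 103, 159, 97, 157, 139, 55 and 33. A pseudocount of 1 CPM gave 706 with 2DG and 468 with anti-PD-L1 against control, and 354 and 313 for the added drugs. Thinned cells gave 210 with 2FF, 149 with anti-PD-L1, 182 and 172 for the combinations against control, and 119 and 91 for the added drugs.

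The shares of cells with a UMI had an adjusted exact permutation p of 0.0402 with all UMIs kept, for differences of 26.6 (Ifng), 5.52 (Il10), 28.2 (Lag3), -15.1 (Cd40lg), -25.3 (Il2ra), 6.6 (Mki67) and -10.4 points (Tcf7). Thinned to 1000 UMIs it was 0.0469, for 11.6 (Ifng), 13.4 (Lag3), -4.00 (Cd40lg), -12.6 (Il2ra), 2.75 (Mki67) and -3.79 points (Tcf7). Depth limits the genes at a few UMIs per library, such as Il10, Il21, Cxcr5 and Tcf7, and the cells with Gzmk or Eomes alone, of which there were as few as 10 in a library.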
